A study of Mus musculus with 22 samples.

Results

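The subject here is the effect that loss of VISTA had in common in 2 culture conditions of mouse myeloid cells. VISTA, encoded by Vsir, is an immune checkpoint protein. The 16 culture libraries were fitted together with the condition as a block and the genotype as the term of interest, on the 23187 genes listed in the count tables of both conditions. Of these, 15293 passed the filter on low counts and were tested, and 7894 did not. A gene was counted as shared when its average knockout effect passed the test (edgeR quasi-likelihood, Benjamini-Hochberg adjusted p below 0.05) and its log2 fold change had the same sign in normoxia and in hypoxia. This held for 6718 of the 15293 tested genes (43.9%).

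Bone marrow myeloid cells of C57BL/6N background were either wild type (WT) or VISTA knockout (KO). Normoxia cultures were sampled on day 4 (4 WT and 4 KO libraries), and hypoxia cultures carry a time of 24 hours (4 WT and 4 KO). Per the design text, the normoxia cells were grown from bone marrow progenitors with GM-CSF and IL-6 in WT and KO alike, and were purified as myeloid-derived suppressor cells. The knockout allele, the mice's age and sex, and the factors of the hypoxia cultures are not given in the sources used here. Condition cannot be told apart from culture time or from the count table that holds a library. The 6 further libraries come from MC38 tumors at day 7 (3 WT and 3 KO), the MC38 line being a mouse colon carcinoma. They did not enter the choice of genes and serve below as a separate measurement. Their label is tumor tissue, and purification of cells from it is not stated. Independent biological replicates are stated for normoxia only, so elsewhere the p-values measure the spread between these libraries, which may be technical.

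VISTA sits on the surface of monocytes and neutrophils and on other leukocytes, where it restrains T cell responses. Myeloid-derived suppressor cells are immature monocytic and granulocytic cells that accumulate in cancer and in inflammation. They hold T cells in check through arginase, nitric oxide, reactive oxygen and inhibitory ligands, and their differentiation draws on STAT3 signalling and on a shift of metabolism. The title of the study names metabolism, differentiation, STAT3 and polyamines, and the comparison asks which of these differed with the knockout whatever the oxygen supply.

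Total counts were 23409142 to 23722932 per normoxia library, 30839108 to 31385825 per hypoxia library and 19119985 to 31716200 per tumor library. In an earlier look at these data 2 normoxia libraries stood apart, KO replicate 4 and WT replicate 3. Without them 6573 genes were shared, among them 6057 of the 6718. The TMM factors, which correct library size for composition, were 1.04 to 1.10 in normoxia WT and 0.946 to 1.06 in normoxia KO, against 0.957 to 0.993 in hypoxia WT and 0.935 to 0.961 in hypoxia KO. Markers of myeloid cells were high: S100a8 lay between 2731.5 and 10957 CPM (counts scaled to a common library size) and Ly6c2 between 1361 and 2262 CPM in the 16 libraries. The 7 T and NK cell markers that passed the filter summed to 20.5 to 49.8 CPM, and 15 others on that list, Cd3e and Cd8a among them, did not pass it. Levels throughout are CPM on TMM-adjusted library sizes, and each fold change is the log2 of KO over WT, given with its standard error (SE).

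Vsir itself checked the genotype labels. In normoxia its level was 629.6, 628, 818 and 659.9 CPM in the WT libraries and 132, 138, 176 and 237 CPM in the KO libraries. In hypoxia it was 552, 630.3, 534 and 549.7 CPM in WT and 163, 171, 163 and 117 CPM in KO. No KO library reached the level of any WT library in either condition. The average log2 fold change was -1.94 ± 0.114 (SE), with -2.002 in normoxia and -1.89 in hypoxia. Exchanging genotype labels within each condition gave an exact two-sided permutation p of 0.000408, the smallest that the 4900 relabellings allow, for a KO minus WT difference of -1.96 in mean log2(CPM + 1). KO libraries still held 24.97% of the WT level in normoxia and 27.1% in hypoxia.

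Cdh23, a cadherin of hair cells in whose gene Vsir lies, was among the largest rises. Vsir spans chromosome 10 from 60346851 to 60372684 on the plus strand (GRCm38), inside the Cdh23 gene on the minus strand from 60302748 to 60696490, and none of its 5014 exon bases falls in a Cdh23 exon. Cdh23 read 3.497, 3.90, 3.57 and 3.61 CPM in normoxia WT and 12.3, 11.4, 13.3 and 27.3 CPM in KO. The hypoxia libraries held 3.30, 4.10, 2.73 and 3.64 CPM in WT and 14.8, 16.8, 26.3 and 12.0 CPM in KO. All KO libraries lay above all WT libraries of their condition, and the average log2 fold change was 2.24 ± 0.195. Whether counting used strand is not given in the sources used here, so reads of the overlapping genes cannot be told apart by strand. Of the 12 tested genes of the locus list, 2 were shared and higher, Cdh23 among them, and 1 was lower (Vsir). Psap, a lysosomal protein precursor on the same chromosome, did not pass (average log2 fold change -0.19 ± 0.102, adjusted p 0.141).

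The shared genes were split almost evenly by direction. Higher in KO were 3330 genes (21.8%) and lower were 3388 (22.2%). This split depended on the scaling: with library size alone in place of TMM factors, 2573 genes were shared and higher and 4441 were shared and lower, so that 36.7% of shared genes were higher against 49.6%, and the median of all tested genes was -0.07 against -0.01. Most effects were small. The median log2 fold change of the shared higher genes was 0.43 (quartiles 0.27 and 0.72), and that of the shared lower genes was -0.35 (quartiles -0.50 and -0.24). Only 471 shared genes (3.08% of those tested) changed at least 2-fold on average, 360 of them higher and 111 lower. Against a null of a 1.2-fold change in place of no change, 2009 genes passed, 1259 higher and 750 lower.

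Fewer genes passed in each condition on its own. In normoxia 11.4% of tested genes were called higher and 8.14% lower, and in hypoxia 14.6% and 14.4%. Tested separately within a fit of the 4 groups, 1974 genes (12.9%) were called in both conditions with the same sign, 1139 higher (7.45%) and 835 lower (5.46%). Another 2079 shared genes were called in hypoxia alone, 787 in normoxia alone and 1878 in neither, so these rest on the average of both conditions. Leaving out 1 library moved the count of genes called in each condition to between 1312 (without normoxia WT replicate 2) and 2420 (without normoxia KO replicate 2), and fitting each condition alone gave 1198. For 1754 genes (11.5%) the KO and WT libraries did not overlap in either condition, in the same direction, 1030 of them higher (6.74%) and 724 lower (4.73%).

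The sizes of the effect in the 2 conditions, measured in separate libraries, ran together. Across the 15293 genes the Pearson correlation of the normoxia effect with the hypoxia effect was 0.628, and it was 0.772 across the 9131 genes whose log2 CPM averaged at least 3. These are correlations across genes, which are not independent replicates, and the points share the genotype and the joint scaling of the 16 libraries. The 1139 genes called higher in each condition had a median log2 fold change of 0.53 in normoxia and 0.60 in hypoxia, and the 835 called lower had -0.44 and -0.48. A test of the difference between the conditions called 73 of all tested genes (0.477%) and 22 of the 6718 shared ones. Leaving out 1 library moved the latter to between 10 (without hypoxia WT replicate 1) and 42 (without normoxia KO replicate 4). A shared sign is thus no statement of equal size, and the share that passed rose with the level of a gene, from 28.7% in the lowest quartile of mean level to 54.9% in the highest.

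**Figure D1:**
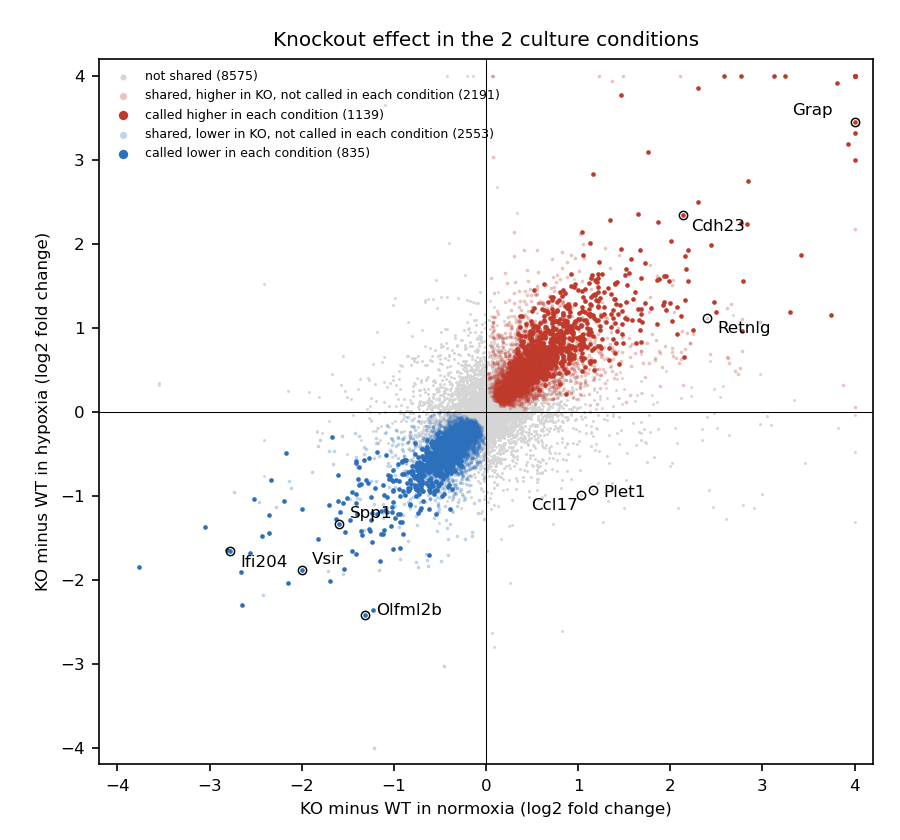
Each point is 1 of 15293 tested genes, with its log2 fold change of KO against WT in normoxia (x axis) and in hypoxia (y axis), and values beyond 4 in either direction drawn at the edge. Red and blue mark shared genes higher and lower in KO, the strong colours those called in each condition alone, and Ccl17 and Plet1 are 2 genes called with opposite signs.

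Ranked among genes whose log2 CPM averaged at least 3 and whose KO and WT libraries did not overlap in either condition, the largest rise was that of Grap, an adaptor protein related to Grb2 that acts in lymphocyte signalling. Grap read 1.499, 1.02, 1.78 and 1.47 CPM in normoxia WT and 31.0, 16.5, 21.8 and 31.3 CPM in KO, and 5.201, 4.79, 4.19 and 4.58 CPM in hypoxia WT and 49.7, 44.5, 61.0 and 50.2 CPM in KO. The groups were far apart in each condition, and the average log2 fold change was 3.72 ± 0.157 (adjusted p 2.85e-11). Next came the immunoglobulin genes Igha and Igkc, the antibody alpha heavy chain and kappa light chain constant regions, at 3.65 ± 0.360 and 3.51 ± 0.272. Igkc stood at 1.69, 0.866, 1.46 and 2.42 CPM in normoxia WT and 21.6, 14.1, 39.0 and 23.6 CPM in KO, and at 3.001, 3.73, 3.08 and 4.42 CPM in hypoxia WT and 33.4, 47.5, 32.9 and 16.1 CPM in KO. Jchain, which links antibody units, rose by 3.47 ± 0.321 (log2) from WT levels of at most 0.516 CPM. Of 11 tested B and plasma cell genes, 6 were shared and higher and 1 lower (Cd22), while Ms4a1 and Pax5, which define B cells, did not pass the filter. Reads of immunoglobulin genes can be split between near-identical segments, and whether this touched the values given here was not tested.

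Other large rises were Pttg1, securin of the dividing cell (1.57 ± 0.0759), Cacna2d2, a calcium channel subunit (1.52 ± 0.125), and Ifit1bl2, an interferon-induced gene (1.46 ± 0.212). Pttg1 was tight within groups: it read 13.8, 13.0, 17.0 and 15.0 CPM in normoxia WT and 44.6, 42.5, 41.3 and 38.7 CPM in KO, and 11.8, 11.8, 10.4 and 11.6 CPM in hypoxia WT and 28.7, 33.9, 36.4 and 42.1 CPM in KO. Its KO libraries all lay above its WT libraries in culture, as the ranking required, but in tumors it was lower in KO, at -1.93 (adjusted p 2.44e-07). The remaining largest rises were Retnlg, Ear1 and Prg3, taken up below with their cell types.

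Among the falls ranked in the same way, Ifi204 stood first and Vsir second. Spp1 (osteopontin, a secreted glycoprotein), Mmp14 (a membrane-bound matrix protease) and Atp6v0d2 (a subunit of the proton pump) were also on that side. Spp1 read 288, 227, 357 and 252 CPM in normoxia WT and 84.0, 104, 90.1 and 94.8 CPM in KO, and 478, 548, 423 and 337 CPM in hypoxia WT and 216, 157, 171 and 161 CPM in KO. No Spp1 value of a KO library reached a WT value of its condition, as the ranking required. The average log2 fold change of Spp1 was -1.47 ± 0.1095 (adjusted p 4.85e-08). Mmp14 was at -1.39 ± 0.132, Atp6v0d2 at -1.37 ± 0.183, Luzp1, a leucine zipper protein, at -1.40 ± 0.0940, Pid1 at -1.34 ± 0.0953 and Smpdl3b, a phosphodiesterase-like membrane protein, at -1.305 ± 0.149. Olfml2b, an olfactomedin-like matrix protein, fell more in hypoxia than in normoxia: it read 28.2, 37.4, 36.4 and 34.2 CPM in normoxia WT and 14.8, 14.7, 13.1 and 12.4 CPM in KO, and 44.3, 29.9, 42.1 and 42.8 CPM in hypoxia WT and 8.09, 6.45, 7.00 and 8.12 CPM in KO. Its log2 fold change was -1.31 in normoxia and -2.42 in hypoxia, and the difference of -1.11 passed the test (adjusted p 0.0047).

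**Figure D2:**
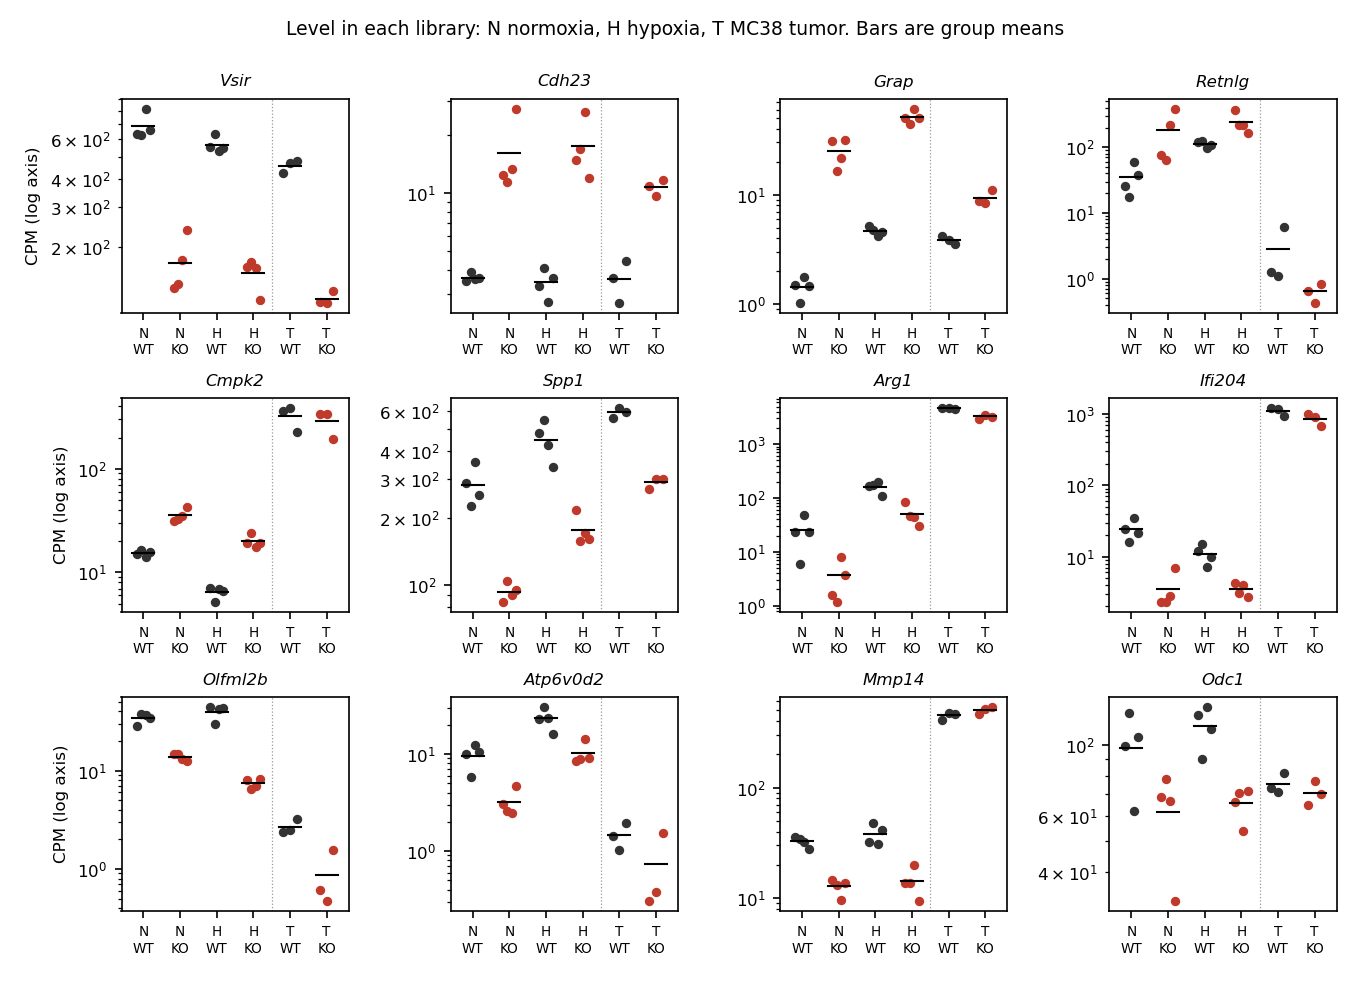
Level of 12 genes in every library, in CPM on log axes that differ between panels, for WT (black) and KO (red) in normoxia (N), hypoxia (H) and MC38 tumor (T), with bars at group means. In the panels of Vsir, Cdh23, Grap, Spp1 and Olfml2b the KO libraries of each culture condition lie wholly to one side of the WT libraries. This was a condition of the ranking of largest changes in which these genes stand.

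Genes of late neutrophils rose together. The list holds 32 tested genes of secondary and tertiary granules and of later neutrophil stages. Of these, 27 were shared and higher and none was lower, against 21.8% and 22.2% of all tested genes, and the median log2 fold change was 0.73 against -0.01 over all tested genes. It was 0.65 in normoxia and 0.76 in hypoxia, and 20 of the 32 were called higher in each condition, against 7.45% of all tested genes. Their summed level was 43535 to 56119 CPM in normoxia WT and 54759 to 85045 CPM in KO, 2 ranges that overlap, and 32763 to 43280.0 CPM in hypoxia WT and 63957 to 78128.5 CPM in KO, which do not. The count stayed between 26 and 28 when 1 library was left out. In bulk RNA more cells of a type and more RNA per cell cannot be told apart, and this holds for each cell type list below.

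Ly6g, the surface marker of mouse neutrophils, read 54.9, 52.4, 94.3 and 75.2 CPM in normoxia WT and 99.7, 107, 192 and 201 CPM in KO. In hypoxia it read 28.7, 26.4, 21.8 and 25.03 CPM in WT and 105, 82.5, 55.7 and 51.0 CPM in KO. KO exceeded WT without overlap in both conditions, and the average log2 fold change was 1.32 ± 0.199 (adjusted p 1.18e-04). Cd177, a neutrophil surface protein, rose by 0.83 ± 0.0854, Itgb2l, an integrin chain, by 0.99 ± 0.103, and Cebpe, the transcription factor of late granule genes, by 0.77 ± 0.0906. Of the granule proteins, named here after their values were seen, Camp (cathelicidin) was at 1.11 ± 0.153, Ltf (lactoferrin) at 1.01 ± 0.130, Ngp at 0.88 ± 0.124 and Lcn2 (lipocalin) at 0.67 ± 0.0980, and all 4 passed. Retnlg, a resistin-like secreted protein, varied widely: it read 26.1, 17.8, 59.4 and 38.3 CPM in normoxia WT and 77.4, 64.6, 215 and 387 CPM in KO, and 119.8, 123, 95.8 and 110.1 CPM in hypoxia WT and 364, 219.6, 222 and 164 CPM in KO. Its groups did not overlap in either condition, which its place among the ranked rises required. Its hypoxia effect alone did not pass (log2 fold change 1.11, adjusted p 0.116).

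The alarmins S100a8 and S100a9, the main calcium-binding proteins of these cells, were higher by 0.45 ± 0.103 and 0.53 ± 0.105. S100a9 read 9089, 6368, 6966 and 6249.6 CPM in hypoxia WT and 10777, 11044, 10198 and 11593 CPM in KO, without overlap, while its normoxia libraries overlapped (7647, 9577, 10958 and 9651 CPM in WT and 8931, 13458, 14821 and 14853 CPM in KO). Of 9 tested primary granule genes 3 were higher (33.3%, against 21.8% of all tested genes; Prss57, Serpinb1a and Elane, at 0.61 ± 0.123, 0.53 ± 0.0825 and 0.42 ± 0.116) and 1 was lower (11.1% against 22.2%; Ctsc, -0.43 ± 0.0883). Without normoxia KO replicate 4 and WT replicate 3 the count of higher genes on that list was 6. The homing receptor Cxcr4 was higher by 0.56 ± 0.0700. The 5 late neutrophil genes that did not pass were Chil3, Fpr1, Fpr2, Stfa1 and Stfa2l1.

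Letters of a C/EBP type, TTGCNNAA on either strand, were found in 7 of the 22 shared late neutrophil genes with a promoter in the RefSeq table (31.8%). The share was 9.55% of all 27025 promoters searched and 7.78% of those of tested genes. Such shares were not particular to this list: 5 of 10 shared matrix genes, 4 of 14 paired receptors and 3 of 13 mast cell and basophil genes held the letters. None of 16 low-oxygen or 14 interferon genes did. The search covered the 250 bases before each gene's start, and 128 of the 167 shared genes named here had a promoter in the table. The promoters of 3 late neutrophil genes with a match are given here because C/EBP factors, Cebpe among them, are the known regulators of such genes. Capitals mark the match. They lie on GRCm38.p6 at chr16:48872358-48872607 (Retnlg, plus strand), chr15:75155011-75155260 (Ly6g, plus strand) and chr3:90695722-90695971 (S100a9, minus strand), and the matches start 246, 232 and 236 bases before the start. A match is a description of letters, not a bound site.
Retnlg: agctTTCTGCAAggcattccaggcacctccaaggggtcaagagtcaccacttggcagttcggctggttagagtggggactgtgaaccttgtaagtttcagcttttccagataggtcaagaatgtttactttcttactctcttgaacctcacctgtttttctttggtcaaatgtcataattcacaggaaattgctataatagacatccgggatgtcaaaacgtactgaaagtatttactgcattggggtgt
Ly6g: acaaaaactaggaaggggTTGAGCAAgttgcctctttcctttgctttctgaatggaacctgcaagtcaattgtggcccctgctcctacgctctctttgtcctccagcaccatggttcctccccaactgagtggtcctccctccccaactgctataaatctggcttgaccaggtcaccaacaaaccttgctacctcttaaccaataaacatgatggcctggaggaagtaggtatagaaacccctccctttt
S100a9: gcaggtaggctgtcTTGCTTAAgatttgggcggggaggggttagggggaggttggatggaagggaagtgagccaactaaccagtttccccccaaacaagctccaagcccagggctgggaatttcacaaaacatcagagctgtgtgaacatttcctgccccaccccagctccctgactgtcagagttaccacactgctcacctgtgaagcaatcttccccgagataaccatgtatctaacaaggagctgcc

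Markers of other granulocyte lines rose as well. Of 14 tested mast cell and basophil genes 13 were shared and higher and none lower, with a median log2 fold change of 0.76. Cpa3, the mast cell carboxypeptidase, read 1.38, 0.905, 1.54 and 1.82 CPM in normoxia WT and 2.47, 3.92, 3.09 and 4.08 CPM in KO, and 71.0, 92.3, 89.9 and 107 CPM in hypoxia WT and 160.5, 165, 134 and 195 CPM in KO. Its groups did not overlap, at a far lower level in normoxia than in hypoxia. Its average log2 fold change was 0.97 ± 0.126, and Kit (the stem cell factor receptor), Il1rl1 (the IL-33 receptor) and Ms4a2 (a chain of the IgE receptor) were at 0.77 ± 0.0837, 1.04 ± 0.133 and 0.74 ± 0.107. The list summed to 72.7 to 95.4 CPM in normoxia WT and 131 to 164 CPM in KO, and to 599 to 931 CPM in hypoxia WT and 949.8 to 1371 CPM in KO.

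Of 11 tested eosinophil genes 10 were shared and higher, with a median of 1.29. Prg2, the major basic protein of the eosinophil granule, read 8.57, 4.57, 8.35 and 5.51 CPM in normoxia WT and 13.9, 20.9, 13.8 and 22.97 CPM in KO, and 376, 355, 478 and 534 CPM in hypoxia WT and 1312, 1347, 753 and 1011 CPM in KO. The KO libraries were above the WT libraries in both conditions, by 1.37 ± 0.162 on average. Prg3 rose by 1.49 ± 0.226, Ear1 by 1.66 ± 0.223, Alox15 by 1.39 ± 0.167 and Ccr3, the eotaxin receptor, by 1.92 ± 0.235, although Ear genes are near-identical copies whose reads may be split. The summed level was 95.7 to 125 CPM in normoxia WT and 127 to 192 CPM in KO, and 1178 to 1876 CPM in hypoxia WT and 2340 to 4209 CPM in KO. The normoxia levels of this list were thus low in both genotypes.

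Megakaryocyte and platelet genes rose in 8 of 9 tested cases (median 0.91). All 8 were called higher in hypoxia, against 14.6% of all tested genes. In normoxia 3 were called higher, against 11.4% of all tested genes, and Vwf was called lower. The median was 0.37 in normoxia and 1.01 in hypoxia. Ppbp (platelet basic protein) was at 1.34 ± 0.184, Gp1ba (a von Willebrand factor receptor chain) at 1.297 ± 0.150 and Itga2b at 0.91 ± 0.119. The list summed to 20.1 to 35.5 CPM in normoxia WT and 16.4 to 28.4 CPM in KO, so no rise showed in that sum, against 172 to 205 CPM in hypoxia WT and 280.0 to 439 CPM in KO. Stem and progenitor genes were higher in 7 of 14 cases (50%, against 21.8% of all tested genes) and lower in 2 (14.3% against 22.2%). Erg was at 0.85 ± 0.115 and Gata2 at 0.70 ± 0.143. On the erythroid list 2 of 7 tested genes were shared and lower (28.6%, near the 22.2% of all tested genes) and none was higher. The list's median log2 fold change was nevertheless -2.55, with -0.27 in normoxia and -2.61 in hypoxia. In hypoxia alone 4 of the 7 were called lower, against 14.4% of all tested genes. Summed levels of the list overlapped between KO and WT in both conditions. The 2 shared and lower genes were Hbb-bs and Car2, carbonic anhydrase, the latter at -0.51 ± 0.129. Hbb-bs, a beta globin with near-identical copies, was at 10.3, 15.6, 28.2 and 36.4 CPM in hypoxia WT and 2.19, 2.32, 3.94 and 2.66 CPM in KO but at no more than 0.122 CPM in any normoxia library.

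**Figure D3:**
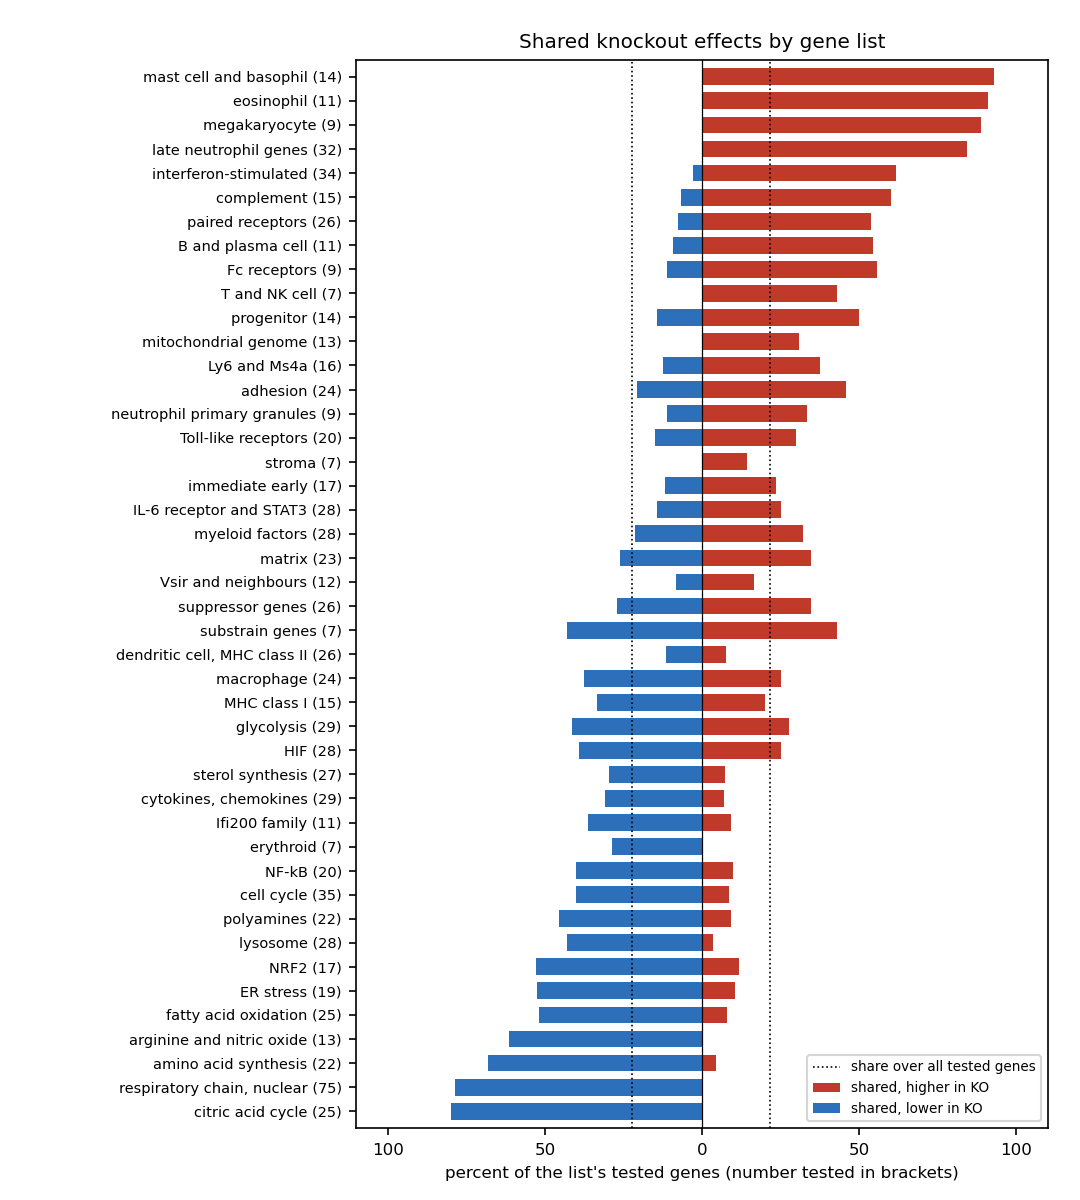
Share of each list's tested genes that were shared and higher (red, to the right) or shared and lower (blue, to the left) in KO, with dotted lines at 21.8% and 22.2%, the shares over all tested genes, and the number of tested genes in brackets. Mast cell, eosinophil, megakaryocyte and late neutrophil genes stand at the top, and citric acid cycle and respiratory chain genes at the bottom with no higher gene.

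Of 24 tested macrophage genes, 6 were shared and higher (25%, against 21.8% of all tested genes; Maf, C1qa, C1qb, C1qc, Ly6c2 and Lyz2) and 9 lower (37.5% against 22.2%; among them Csf1r, Cd68, Trem2, Marco, Msr1 and Spp1). Cd68, a lysosomal marker, was at -0.45 ± 0.0938 and Marco, a scavenger receptor, at -1.93 ± 0.296, while Ly6c2, the monocyte marker Ly6C, was at 0.26 ± 0.0542. Summed levels of the list overlapped between KO and WT in both conditions. Dendritic cell and MHC class II genes had medians of different sign in the 2 conditions, 0.68 in normoxia and -0.22 in hypoxia. Of 26 tested, 2 were shared and higher (7.69%; Cd209a and Clec9a) and 3 lower (11.5%). Both shares were below the 21.8% and 22.2% of all tested genes. The lower ones were Batf3, a factor of cross-presenting dendritic cells, at -1.32 ± 0.199, Bst2, a tether of budding virus, at -0.56 ± 0.0943 and Tcf4, a factor of plasmacytoid dendritic cells, at -0.31 ± 0.0746.

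Interferon-stimulated genes were higher in 21 of 34 tested cases and lower in 1 (Bst2), against 21.8% and 22.2% of all tested genes. Of the 34, 8 were called higher in each condition, against 7.45% of all tested genes. The median log2 fold change was 0.34, with 0.39 in normoxia and 0.31 in hypoxia. Cmpk2, a nucleotide kinase next to the antiviral gene Rsad2, read 15.0, 16.5, 14.1 and 15.8 CPM in normoxia WT and 31.7, 32.9, 35.3 and 42.9 CPM in KO, and 7.04, 5.19, 6.92 and 6.56 CPM in hypoxia WT and 19.1, 23.9, 17.6 and 19.3 CPM in KO. It did not overlap in either condition and had the smallest p of the list (average log2 fold change 1.42 ± 0.0957, adjusted p 6.99e-09). The 2',5'-oligoadenylate synthetases Oas2 and Oas3, which sense double-stranded RNA, were at 0.91 ± 0.125 and 0.69 ± 0.0886, and Ifit1bl1 at 1.69 ± 0.235 with no level above 1.97 CPM. Among others on the list, the transcription factors Irf7, Irf9 and Stat2 were shared and higher, whereas 12 genes did not pass, Isg15, Ifit1, Ifit3 and Usp18 among them. The list summed to 563 to 668 CPM in normoxia WT and 713.5 to 868 CPM in KO, and to 288 to 339 CPM in hypoxia WT and 361 to 427 CPM in KO, without overlap. With library size alone 17 of the 34 were shared and higher, and against a 1.2-fold null 10 were.

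Letters of the interferon response element type (GAAA, any 2 bases, GAAA, on either strand) were found in 7 of the 14 shared interferon genes with a promoter in the table (50%), against 3.04% of all promoters. The promoters shown are those of Oas3, Ifit1bl1, Ifit1bl2 and Bst2, since the first 3 rose and the last fell, and all hold the letters. Bst2 lies at chr8:71537473-71537722, Ifit1bl1 at chr19:34601969-34602218, Ifit1bl2 at chr19:34640744-34640993 and Oas3 at chr5:120777660-120777909, all on the minus strand. Capitals mark the motif matches, which in Bst2 include a TTCNNNGAA (STAT type) that overlaps the interferon type letters.
Oas3: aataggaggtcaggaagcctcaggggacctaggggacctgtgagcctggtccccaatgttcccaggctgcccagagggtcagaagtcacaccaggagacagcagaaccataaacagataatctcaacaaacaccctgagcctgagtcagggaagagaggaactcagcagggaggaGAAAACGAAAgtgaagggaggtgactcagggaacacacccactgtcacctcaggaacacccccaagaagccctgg
Ifit1bl1: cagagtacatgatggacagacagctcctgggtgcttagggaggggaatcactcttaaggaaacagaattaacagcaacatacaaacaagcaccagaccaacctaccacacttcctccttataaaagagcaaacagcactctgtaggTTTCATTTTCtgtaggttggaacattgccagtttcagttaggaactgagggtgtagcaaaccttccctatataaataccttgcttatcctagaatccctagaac
Ifit1bl2: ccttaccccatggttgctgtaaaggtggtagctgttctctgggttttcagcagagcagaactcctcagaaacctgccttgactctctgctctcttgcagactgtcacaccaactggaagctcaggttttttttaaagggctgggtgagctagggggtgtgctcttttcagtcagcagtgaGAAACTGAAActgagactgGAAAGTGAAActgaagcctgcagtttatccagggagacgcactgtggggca
Bst2: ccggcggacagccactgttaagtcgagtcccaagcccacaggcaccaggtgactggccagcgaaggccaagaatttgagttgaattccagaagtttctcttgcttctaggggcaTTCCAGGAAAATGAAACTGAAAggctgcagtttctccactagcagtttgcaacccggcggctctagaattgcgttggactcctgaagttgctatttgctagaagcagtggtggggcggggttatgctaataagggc

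TTCNNNGAA stood in 7.18% of all promoters, in 5.95% of those of shared higher genes and in 6.12% of those of shared lower genes. For the interferon type letters these shares were 2.997% and 2.718%. The shares among all tested genes with a promoter were 6.11% and 2.83%.

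Receptors of the innate immune surface rose more often than they fell. Over all tested genes 21.8% were shared and higher and 22.2% lower. Of 26 tested paired immunoglobulin-like, Siglec and C-type lectin receptors 14 were higher and 2 lower (Clec4d and Clec4n), of 9 Fc receptor genes 5 were higher and 1 lower (Fcer1g), and of 15 complement genes 9 were higher and 1 lower (Cfb). The higher Fc receptor genes Fcgr2b, Fcgr4, Fcrla and Fcrlb are neighbours, in the interval of chromosome 1 from 170 to 175 Mb described below. Fcgr2b, the inhibitory IgG receptor, read 134, 116, 156 and 138 CPM in normoxia WT and 310.1, 292, 392 and 422 CPM in KO, and 218, 260.2, 191 and 204 CPM in hypoxia WT and 611, 505, 530.4 and 376 CPM in KO. KO was above WT in every library of both conditions, at 1.296 ± 0.103 (adjusted p 7.95e-08). Fcgr4, an activating IgG receptor, was at 0.81 ± 0.145, the inhibitory receptors Siglecg and Clec4a2 at 0.89 ± 0.0973 and 0.66 ± 0.0871, the complement regulator Cd55 at 0.95 ± 0.132 and C3, the central complement component, at 0.37 ± 0.0744. Tlr2, which senses bacterial lipoproteins, fell by 0.44 ± 0.0724, whereas Tlr1 and Tlr5 were at 0.49 ± 0.125 and 1.06 ± 0.287. In adhesion, Ceacam1 and Cd24a rose by 0.95 ± 0.0807 and 0.67 ± 0.0801, and the tetraspanin Cd9 fell by 0.97 ± 0.0791.

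Of 13 tested genes of arginine use 8 were shared and lower (61.5%, against 22.2% of all tested genes) and none was shared and higher (against 21.8%), with a median of -0.42. Arg1, arginase, which breaks arginine down to ornithine, varied widely: it read 23.3, 5.87, 48.0 and 23.1 CPM in normoxia WT and 1.58, 1.16, 7.95 and 3.77 CPM in KO, and 165, 175, 194 and 107 CPM in hypoxia WT and 85.3, 45.6, 43.3 and 30.0 CPM in KO. The normoxia groups overlapped and the hypoxia groups did not, and the average log2 fold change was -2.12 ± 0.436 (adjusted p 0.00171). Ass1, argininosuccinate synthase, which remakes arginine, was tighter, with 254, 295, 255 and 260.2 CPM in normoxia WT and 147, 150.5, 140.5 and 83.6 CPM in KO, and 110.1, 115, 117 and 134 CPM in hypoxia WT and 49.1, 48.3, 45.3 and 42.6 CPM in KO. It did not overlap and fell by 1.19 ± 0.101. Slc7a2, an arginine transporter, fell by 1.18 ± 0.182, and Gch1, which acts in making the cofactor of nitric oxide synthase, fell by 0.42 ± 0.0964. Nos2, the inducible nitric oxide synthase, was at -0.84 ± 0.325 with an adjusted p of 0.0477. It lost the call under 19 of 27 alternatives, over which its adjusted p ran from 0.00477 to 0.152.

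Of 22 tested polyamine genes 10 were lower (45.5%, against 22.2% of all tested genes) and 2 higher (9.09% against 21.8%; Sat1, which acetylates polyamines for export, and Oaz2, an antizyme). Odc1, ornithine decarboxylase, the first step of synthesis, read 98.7, 125, 61.9 and 105 CPM in normoxia WT and 68.5, 78.2, 66.7 and 32.5 CPM in KO, and 124, 90.3, 131 and 112 CPM in hypoxia WT and 66.3, 70.8, 53.8 and 71.7 CPM in KO. It overlapped in normoxia and not in hypoxia, and fell by 0.74 ± 0.162 on average (adjusted p 0.00197). Sms, spermine synthase, fell by 0.62 ± 0.127, and Mtap, which salvages methylthioadenosine, and Slc3a2, a transporter subunit, were at -0.72 ± 0.152 and -0.32 ± 0.0541. Srm, spermidine synthase, was among the 10 that did not pass. Against a 1.2-fold null 5 were shared and lower and none higher.

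Of 22 tested genes of amino acid synthesis and transport 15 were lower (68.2%, against 22.2% of all tested genes) and 1 was higher (4.55% against 21.8%; Slc38a2). Psat1, a step of serine synthesis, read 185, 197, 171 and 192 CPM in normoxia WT and 129, 133, 97.98 and 66.5 CPM in KO, and 145, 114, 139 and 123 CPM in hypoxia WT and 72.0, 72.9, 69.3 and 97.2 CPM in KO. Its KO libraries were below its WT libraries in each condition (-0.77 ± 0.115), and Mthfd2 (mitochondrial folate), Gpt2 (alanine) and Slc7a11 (cystine import) were at -0.55 ± 0.0939, -0.73 ± 0.124 and -0.56 ± 0.0849. Of 19 endoplasmic reticulum stress genes 10 were lower (52.6%) and 2 higher (10.5%), among the lower ones Pdia6, Pdia4 and Trib3 at -0.37 ± 0.0826, -0.47 ± 0.105 and -0.46 ± 0.0922. Of 17 NRF2 genes 9 were lower (52.9%) and 2 higher (11.8%), with Prdx1, Txnrd1 and Me1 at -0.61 ± 0.0719, -0.45 ± 0.0735 and -0.92 ± 0.136.

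Mitochondrial enzymes were lower by small amounts in most cases. Of 75 tested nuclear-encoded subunits of the respiratory chain none was shared and higher and 59 were lower, with a median of -0.27, and of 25 citric acid cycle genes none was higher and 20 were lower, with a median of -0.20. The respiratory chain median was -0.18 in normoxia and -0.35 in hypoxia. Of the 75 genes 59 were called lower in hypoxia, against 14.4% of all tested genes. In normoxia 11 of the 75 were called lower, against 8.14% of all tested genes. Sdhc, a subunit of complex II, read 68.4, 69.7, 74.2 and 63.6 CPM in normoxia WT and 56.2, 63.5, 58.5 and 45.3 CPM in KO, and 84.5, 74.7, 77.2 and 75.3 CPM in hypoxia WT and 53.5, 53.3, 52.4 and 53.4 CPM in KO. The KO values were just below the WT values in normoxia and clearly apart in hypoxia, for an average of -0.43 ± 0.0655. Idh2, mitochondrial isocitrate dehydrogenase, read 96.3, 95.9, 93.7 and 90.5 CPM in normoxia WT and 68.1, 74.0, 64.4 and 47.8 CPM in KO, and 97.3, 87.2, 105 and 92.2 CPM in hypoxia WT and 60.0, 64.3, 55.0 and 65.2 CPM in KO. Its groups did not overlap in either condition, and the average log2 fold change was -0.60 ± 0.0716.

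The 4 subunits of complex II stand on both lists. Against a 1.2-fold null 5 of the 75 respiratory chain genes and 4 of the 25 cycle genes passed, all lower. Leaving out 1 library moved the first count to between 56 and 63 and the second to between 16 and 20. Of the 13 protein genes of the mitochondrial genome 4 were shared and higher (30.8%, against 21.8% of all tested genes). None was lower (against 22.2%), and none was called in each condition. Between 3 and 7 passed when 1 library was left out, with none against a 1.2-fold null. In normoxia 7 of the 13 were called higher, against 11.4% of all tested genes (median 0.38). In hypoxia the median was 0.03 and the adjusted p-values (edgeR) ran from 0.102 to 0.877. The subunit genes mt-Nd4 and mt-Cytb were at 0.35 ± 0.0885 and 0.33 ± 0.0923. Together these 13 genes took 3.78% to 4.72% of counts in normoxia WT, 4.37% to 5.51% in normoxia KO, 4.00% to 4.92% in hypoxia WT and 3.65% to 4.88% in hypoxia KO. In the same hypoxia libraries the summed markers of late neutrophils, mast cells and eosinophils were higher in KO without overlap, and in normoxia those of mast cells and eosinophils were. Their part in the results on metabolic, inflammatory and receptor genes was not tested.

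Of 29 tested glycolysis genes 8 were higher (27.6%) and 12 lower (41.4%), and of 28 low-oxygen genes 7 were higher (25%) and 11 lower (39.3%), against 21.8% and 22.2% of all tested genes. Against a 1.2-fold null 3 glycolysis genes passed in each direction. Slc2a1 (GLUT1) read 166, 168, 134 and 158 CPM in normoxia WT and 128, 111, 111 and 87.5 CPM in KO, and 344, 363, 363 and 346 CPM in hypoxia WT and 257, 249, 247 and 223 CPM in KO. Its relative Slc2a3 (GLUT3) read 101, 88.9, 132 and 121 CPM in normoxia WT and 156, 167, 227 and 328 CPM in KO, and 206, 267, 192 and 257 CPM in hypoxia WT and 465, 432, 396 and 406 CPM in KO. Both genes had KO and WT libraries apart in each condition, the first lower at -0.53 ± 0.0664 and the second higher at 0.93 ± 0.135. Gapdh, an enzyme of mid-glycolysis often used as a reference gene, was at -0.49 ± 0.0605, with 7771 ± 359.5 CPM in hypoxia WT and 5639 ± 207 CPM in KO (SD, n = 4 each), and Hk3 was higher by 0.48 ± 0.0548. Hif1a, the oxygen-regulated factor, was at -0.36 ± 0.0619 and Pfkfb4, a regulator of glycolysis, at 0.73 ± 0.0793. Of 25 fatty acid genes 13 were lower (52%) and 2 higher (8%), with Pparg, Fabp5 and Hadh at -0.72 ± 0.116, -0.69 ± 0.0908 and -0.39 ± 0.0624, and Cpt1a, which admits fatty acids to the mitochondrion, did not pass (0.03 ± 0.0612, adjusted p 0.745).

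**Figure D4:**
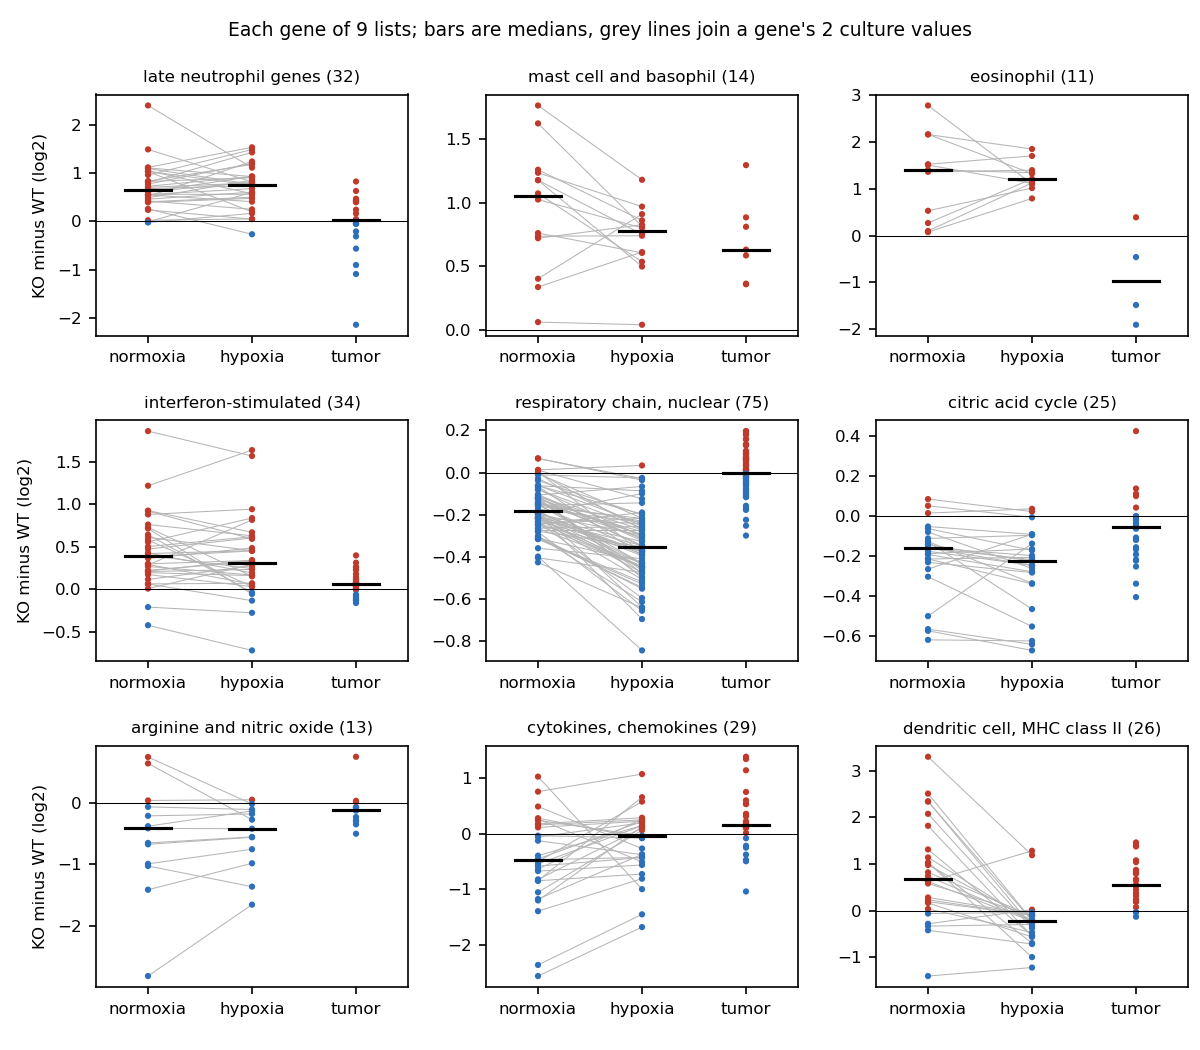
Log2 fold change of KO against WT for each tested gene of 9 lists in normoxia, hypoxia and MC38 tumor, with lines joining the 2 culture values of a gene and bars at medians. The respiratory chain median is -0.18 in normoxia, -0.35 in hypoxia and -0.0017 in tumor, and the dendritic cell median is 0.68 in normoxia and -0.22 in hypoxia.

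Of 29 tested cytokines and chemokines 9 were lower (31.0%, against 22.2% of all tested genes; Il1a, Il1b, Tnf, Ccl2, Ccl6, Ccl9, Cxcl1, Cxcl2 and Cxcl3) and 2 higher (6.90% against 21.8%; Il27 and Ebi3, the 2 chains of interleukin 27). Il1b read 24.3, 21.3, 31.8 and 22.3 CPM in normoxia WT and 11.7, 11.1, 17.5 and 15.2 CPM in KO, and 273, 290.0, 252 and 299 CPM in hypoxia WT and 210.5, 178, 181 and 106 CPM in KO. Its groups did not overlap in either condition, and it fell by 0.78 ± 0.129 (adjusted p 1.81e-04). Il1a fell by 2.01 ± 0.195, and Cxcl1, a neutrophil attractant, fell by 1.56 ± 0.213 from WT levels of at most 0.933 CPM in normoxia and 6.77 to 9.60 CPM in hypoxia. Il27 rose by 0.91 ± 0.127. Of 20 NF-kB genes 8 were lower (40%) and 2 higher (10%), with the feedback inhibitors Tnfaip3 and Tnip3 lower at -0.41 ± 0.0745 and -0.90 ± 0.111 and Nfkbid, a nuclear I-kB protein, higher at 0.49 ± 0.0825. In tumor 11 of these 20 were called higher in KO, against 3.28% of all genes tested there, and none lower. Il1b was at 0.54 in tumor (adjusted p 0.128, and 5.19e-08 with the replicate number as a block). The median of the cytokine list was -0.47 in normoxia and -0.03 in hypoxia, a difference that was not tested.

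On the IL-6 receptor and STAT3 list 7 of 28 tested genes were higher (25%) and 4 lower (14.3%), against 21.8% and 22.2% of all tested genes. Stat3 read 184, 163, 209.8 and 172 CPM in normoxia WT and 211, 195, 216 and 279.7 CPM in KO, and 265, 304, 251 and 284 CPM in hypoxia WT and 321, 315, 327 and 284 CPM in KO, and the groups overlapped in both. Its average log2 fold change was 0.24 ± 0.0735 (adjusted p 0.0127). Cebpd rose by 0.70 ± 0.0760 and Pias3, an inhibitor of STAT3, by 0.51 ± 0.0667. Socs3, the feedback inhibitor of IL-6 signalling, was called with opposite signs, higher in normoxia (0.43) and lower in hypoxia (-0.37), and averaged 0.03 ± 0.132. The difference between the conditions did not pass (adjusted p 0.0526). Of 26 suppressor genes 9 were higher (34.6%), the oxidase subunits Ncf1 (0.34 ± 0.0613) and Ncf4 (0.38 ± 0.0542) among them, and 7 lower (26.9%), with Cd274, the ligand PD-L1, at -0.35 ± 0.0728. Of 35 cell cycle genes 14 were lower (40%) and 3 higher (8.57%), with the D cyclins split: Ccnd1 and Ccnd2 were lower at -1.19 ± 0.215 and -1.21 ± 0.262, and Ccnd3 rose by 0.29 ± 0.0523.

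Opposite calls were rare. The average test itself favours genes with the same sign in both conditions, and 57 of the 6775 genes that passed it had different signs. Of all 15293 tested genes 12128 (79.3%) had the same sign in both. Called in each condition with opposite signs were 25 genes (0.163%). Pira2, an activating paired receptor, read 309.8, 310.0, 286 and 329.9 CPM in normoxia WT and 427, 384, 524 and 528 CPM in KO, and 381, 377, 366 and 373 CPM in hypoxia WT and 235, 213, 248 and 208 CPM in KO. It was wholly higher in KO in normoxia (0.59) and wholly lower in hypoxia (-0.73), with a difference of -1.32 (adjusted p 4.88e-05). Plet1, Ccl17 and Crybg1 were also higher in normoxia, at 1.16, 1.03 and 0.44, and lower in hypoxia, at -0.94, -0.995 and -0.50. These genes are outside the shared set by definition.

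The share of genes with a large shared effect varied along the genome. Counted in windows of 5 Mb, chosen after the values were seen and given with no test, the interval of chromosome 1 from 170 to 175 Mb (GRCm38) held 23 shared genes changed at least 2-fold among 86 tested genes, or 26.7% against 3.08% of all tested genes. By count no other of the 535 windows held more than 7, and 293 held none. By share it did not stand alone: chromosome 12 from 115 to 120 Mb held 6 of 21 (28.6%), and chromosome 14 from 40 to 45 Mb held 3 of 14 (21.4%). Of the 23 genes of the chromosome 1 interval 13 were higher and 10 lower, and 15 were called in each condition. They include the Fc receptor and Fc receptor-like genes Fcgr2b, Fcrla and Fcrlb, the SLAM family receptors Cd244a, Slamf7 and Slamf1, and members of the DNA-sensing Ifi200 family. Vsir's own window, chromosome 10 from 60 to 65 Mb, held 6 of 39 (15.4%, against 3.08% of all tested genes).

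Within the chromosome 1 interval the Ifi200 genes went in different directions. Ifi204 read 24.3, 16.2, 34.9 and 21.4 CPM in normoxia WT and 2.31, 2.32, 2.79 and 6.82 CPM in KO, and 12.0, 15.0, 7.24 and 10 CPM in hypoxia WT and 4.27, 3.09, 3.94 and 2.73 CPM in KO. All KO libraries were below the WT libraries of their condition (-2.21 ± 0.275), as its place among the ranked falls required. Ifi209 was at -1.22 ± 0.161. Ifi202b was nearly absent from WT: the 4 normoxia WT libraries held 3 counts in all and the KO libraries 1057, and hypoxia WT held 1 count and KO 515. The ratio was 375 in normoxia (95% counting interval 128 to 1820, exact binomial) and 537 in hypoxia (96.0 to 21268), intervals that cover counting error only. In KO it read 8.37, 7.89, 11.7 and 17.1 CPM in normoxia and 5.34, 3.54, 6.12 and 2.66 CPM in hypoxia. Of 11 tested Ifi200 genes 1 was shared and higher (9.09%, against 21.8% of all tested genes) and 4 lower (36.4% against 22.2%). They belong to the same family, and reads from stretches that are alike between members may be assigned to one another. On a list of known differences between C57BL/6 substrains 7 genes were tested. Of these, 3 were shared and higher (42.9%, against 21.8% of all tested genes) and 3 lower (42.9% against 22.2%). The higher ones were Cyfip2 at 0.60 ± 0.0745, Nlrp12 at 1.15 ± 0.158 and Wdfy1 at 0.23 ± 0.0610. The lower ones were Ide at -0.34 ± 0.108, Entpd4 and Entpd4b. Strain background is labelled alike for all groups, and the part of linked or background variants in any result was not tested.

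The tumor libraries measured the shared genes again in RNA of another source. Of 14370 genes tested there, 471 were called higher (3.28%) and 437 lower (3.04%). Of 2658 shared higher genes tested in tumor, 156 were called higher (5.87%) and 60 lower, and of 3256 shared lower genes, 172 were called lower (5.28%) and 64 higher. Over all genes tested in both sources the called shares were 3.23% and 3.1%. For genes called in each culture condition the figures were 83 of 940 higher (8.83%, with 28 the other way) and 71 of 817 lower (8.69%, with 21 the other way). Among those that also changed at least 2-fold they were 26 of 98 (3 the other way) and 17 of 62 (4 the other way). Most shared genes thus had no call in tumors. The 328 same-direction calls became 163 without MC38 KO replicate 1, 172 without KO replicate 2 and 188 without WT replicate 2, and 394 without KO replicate 3. They numbered 418 with DESeq2 and 484 with no filter on low counts. Same-numbered WT and KO tumor libraries deviated together, so a pairing was inferred from these same data. With the number as a replicate block 1164 genes were called higher (8.1%) and 1102 lower (7.67%) in tumor. Of the shared higher genes 403 were then called higher (15.2%) and 179 lower, and of the shared lower genes 408 were called lower (12.5%) and 134 higher, or 811 in the same direction. For genes called in each culture condition the blocked figures were 164 higher (73 the other way) and 139 lower (40 the other way), and among those changed at least 2-fold 33 and 22 (8 and 7 the other way).

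The genes called in both cultures and in tumor include, on the higher side, Cdh23 (1.58 in tumor), Grap (1.27), Fcgr2b (0.67) and Cd177 (0.40). On the lower side are Vsir (-1.95), Spp1 (-1.04), Olfml2b (-1.64), Cd9 (-0.85) and Arg1 (-0.51). Arg1 read 4738, 4715 and 4457 CPM in tumor WT and 2994, 3554 and 3254 CPM in KO, well above its culture levels and without overlap. Of the 17 genes of the chromosome 1 interval tested in tumor 11 were called in the same direction and none in the opposite one (14 and 1 with the block). Other genes went the opposite way in tumor, among them Slc2a3 (-1.300, adjusted p 2.27e-04), Cd24a (-0.96, adjusted p 4.37e-05) and Clec4a2 (-0.40, adjusted p 0.00624), all lower in KO. The lists did not carry over alike. Late neutrophil genes had a tumor median of 0.02 with 2 of 21 called in each direction (4 with the block), among them Cxcr4 and Cebpe lower in KO (-0.90 and -1.08), and their summed level was 2047 to 2188.5 CPM in WT and 2063 to 2257 CPM in KO. The interferon list had a tumor median of 0.07, with 7 of 34 called higher and 1 lower under the block, and the respiratory chain list had one of -0.0017, with 3 of 75 called lower under the block. Glycolysis genes were lower in 13 of 29 cases and higher in 1 (18 and 2 with the block), with Gapdh at -0.72. On the NF-kB list 11 of 20 were called higher in tumor and none lower (15 and 1 with the block), where the cultures had 2 shared and higher and 8 lower. Of 7 T and NK cell genes 5 were called lower in tumor and none higher (all 7 lower with the block), against 3 shared and higher in culture. Of 24 dendritic cell and MHC class II genes 11 were called higher in tumor and none lower (13 and none with the block), and of 28 low-oxygen genes 12 were called lower and none higher (17 and 2). Of 16 immediate-early genes 7 were called higher and none lower (11 and none with the block).

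**Figure D5:**
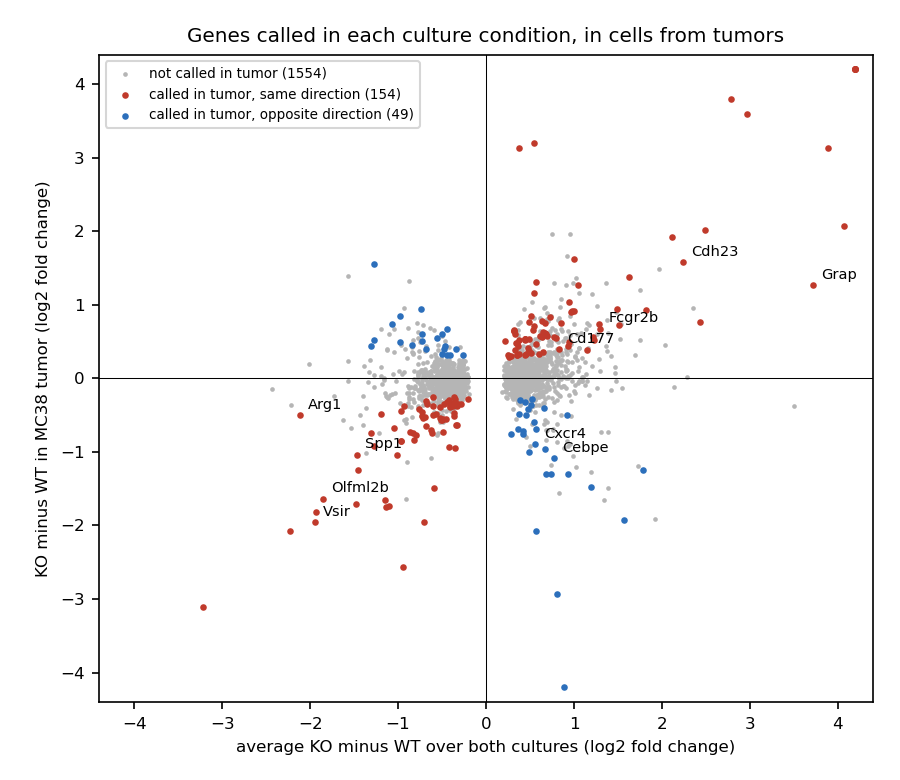
Average log2 fold change over both cultures (x axis) and log2 fold change in MC38 tumor (y axis) for the 1757 genes called in each culture condition and tested in tumor, with values beyond 4.2 drawn at the edge. Red points are the 154 genes called in tumor in the same direction as in culture, and blue points those called in the opposite one.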

How the data were processed

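Bulk RNA was sequenced from 16 culture libraries and 6 MC38 tumor libraries, all of them mouse, prepared with a SMART-Seq kit (labels' protocols). The deposited raw counts per Ensembl gene were used, 1 table for each of the 3 experiments. Per the submitters' processing notes, the authors' tools were Subread, featureCounts and DESeq2 on GRCm38.p6, with versions, strand setting and filters not given in the sources used here. The authors' normalized tables were not used. Totals per library were 19119985 to 31716200 counts. In the culture tables the WT columns are named as such, and the others, under an unexplained code, were read as KO by elimination.

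Genes in both culture tables were joined by identifier and named from GENCODE M21. Of 725 genes in the normoxia table alone and 10078 in the hypoxia table alone, 40 had at least 10 counts in at least 4 libraries. edgeR 4.0.16 (R 4.3.3) filtered on low counts (filterByExpr, 4 groups), scaled by TMM and fitted a robust quasi-likelihood model of condition plus genotype. A fit of 4 groups gave the effect within each condition and the difference between conditions. Tumor libraries were fitted apart. Their replicate numbers were taken from the labels. Deviations of same-numbered WT and KO libraries correlated at 0.35, 0.17 and 0.47, and those of differently numbered ones at -0.37 to 0.15. The pairing was thus inferred from the same data that it then models. Values with the number as a replicate block are given beside the tumor counts as an alternative. P-values were adjusted by Benjamini-Hochberg over all tested genes, with a threshold of 0.05, and SE is the absolute log2 fold change over the root of F. No 2 libraries of a group were alike within counting noise (lowest chi-square per degree of freedom 3.70 over 30 pairs). The script was tested on simulated data.

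Genes named are Vsir, Cdh23 and Psap, the 10 largest rises and 10 largest falls among shared genes whose log2 CPM averaged at least 3 and whose groups overlapped in neither condition (predicted genes passed over), up to 4 shared members of each list by smallest p, 14 genes of the study's themes given whether or not they passed, and 4 genes called with opposite signs. A few genes that this rule or a list holds are not reported here. Others are said to be chosen after their values were seen, or are given by list without values. The subject, the rule for naming genes with its 14 genes of the themes, the 44 gene lists and the alternatives were chosen with earlier results of these data known. Alternatives were limma-voom 3.58.1, DESeq2 1.42.0, other scalings, filters, models and a fold threshold, a replicate block, and leaving out libraries. Promoters were taken from the RefSeq table for GRCm38.p6.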

Additional observations from a re-analysis of the deposited data

Results flagged for a closer look

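In each culture group of 4 libraries, the highest or the lowest level of a named gene is given here when its gap to the nearest other library exceeded the 95% critical share of the group's range (Dixon's test). This occurred 34 times over 696 such groups, and chance gives about 1 in 20. Normoxia KO replicate 4 accounted for 8 of them. It was the highest of its group for Cdh23 (27.32 CPM), Ifi204 (6.82 CPM), Pid1 (18.53 CPM), Ms4a4a (3.23 CPM), Ifit1bl1 (1.974 CPM), Cyfip2 (501.2 CPM) and Crybg1 (44.33 CPM), and the lowest for Ass1 (83.63 CPM).

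Normoxia WT replicate 3 was the highest of its group for Vsir (818.1 CPM), Cebpd (88.73 CPM), Oas2 (18 CPM) and C3 (3099 CPM). Normoxia WT replicate 2 was the highest for Ass1 (295.2 CPM) and the lowest for Slc7a2 (22.83 CPM) and Cd274 (31.33 CPM). Normoxia WT replicate 1 was the highest for Cfb (1.729 CPM), and normoxia KO replicate 1 for Oas2 (31.39 CPM).

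In hypoxia WT, replicate 2 was the highest for Psap (7875 CPM) and the lowest for Olfml2b (29.94 CPM) and Cebpe (57.03 CPM). Replicate 3 was the lowest for Gpt2 (9.254 CPM) and the highest for Batf3 (2.727 CPM), and replicate 4 was the highest for Kit (30.91 CPM) and for Ifi202b (0.03247 CPM, a single count). In hypoxia KO, replicate 3 was the highest for Atp6v0d2 (14.34 CPM) and Icam1 (33.43 CPM) and the lowest for Gata1 (6.149 CPM), Sdhc (52.35 CPM) and Pdia6 (120 CPM). Hypoxia KO replicate 4 was the lowest for Vsir (116.6 CPM) and Plet1 (8.252 CPM) and the highest for Psat1 (97.17 CPM) and Me1 (1.92 CPM). Hypoxia KO replicate 2 was the highest for Cyfip2 (492 CPM).

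For 5 named genes the knockout effect differed between the conditions in the test of the difference (edgeR, adjusted p). Hypoxia minus normoxia was -1.115 for Olfml2b (0.0047), -1.317 for Pira2 (4.88e-05), -2.101 for Plet1 (0.000342), -2.027 for Ccl17 (0.00724) and -0.9407 for Crybg1 (0.0122), on the log2 scale. The last 4 were chosen for their opposite signs, so their difference is a description. Condition, culture time and table cannot be told apart.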

How the results depend on the processing

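The count of 6718 shared genes was 6922 with DESeq2, 6747 with limma-voom, 6737 with RLE scaling, 7014 with library size alone, 6585 with no filter and 5997 with a minimum count of 50. It was 6633 in the fit of 4 groups, 7320 with same-numbered libraries summed, and 5968 to 7013 when 1 library was left out. A fold threshold of 1.2 left 2009, since it asks for a larger change. Genes called in each condition numbered 1312 to 2420 when 1 library was left out and 1198 when each condition was fitted alone on 8 libraries. Shared genes whose effect differed between conditions numbered 10 to 42 when 1 library was left out. Those called in tumor in the same direction numbered 163 to 394 when 1 library was left out. The cause of the last 2 ranges was not tested.

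Whether replicate numbers pair the culture libraries is not settled. Deviations of same-numbered WT and KO libraries correlated at 0.08, 0.57, 0.20 and -0.10 in normoxia and at -0.34 to 0.05 in hypoxia. With the number as a replicate block 6436 genes were shared and 1799 were called in each condition, and the block gave 14 genes that differed between conditions and 811 called in tumor.

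Of 174 named genes, 167 passed with the same sign in each condition. Over 27 alternatives, 43 of them lost the call at least once, most under the fold threshold, and 2 (Nos2 and mt-Atp6) when 1 library was left out. No called gene reversed. Socs3 and Cpt1a, which did not pass, crossed zero: Socs3 was at -0.0386 with library size alone, -0.0407 with summed libraries, -0.0224 without the 2 normoxia libraries and -0.0409 to 0.095 when 1 library was left out, and Cpt1a at -0.0421, -0.0046 without the 2 libraries and -0.0107 to 0.0574. Depth limits low genes: 7894 listed genes were not tested.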

Other observations

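Other gene groups held shared members as well, to be read against 21.8% higher and 22.2% lower among all tested genes. Of 28 tested lysosomal genes 12 were lower and 1 was higher (Ctse), with the cathepsins Ctsz and Ctsb at -0.52 ± 0.0740 and -0.40 ± 0.0697. Of 27 genes of sterol and fatty acid synthesis 8 were lower and 2 higher, with Scd1 and Scd2, which desaturate fatty acids, at -0.59 ± 0.0794 and -0.42 ± 0.0664 and the sterol enzyme Sqle at -0.27 ± 0.0555. With library size alone no gene of that list was shared and higher and 12 were lower. Of 28 myeloid transcription factors 9 were higher and 6 lower. Gata1, a factor of erythroid, mast cell and eosinophil lines, was at 1.01 ± 0.147, and Bhlhe41, a helix-loop-helix factor of tissue macrophages, at -2.23 ± 0.166. Of 23 matrix genes 8 were higher and 6 lower, with the neutrophil protease Mmp25 at 0.89 ± 0.130.

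MHC class I genes were near the background, with 3 of 15 higher and 5 lower. H2-T23 was at 0.43 ± 0.107 and the immunoproteasome subunit Psmb10 at -0.29 ± 0.0675. Of 17 immediate-early genes 4 were higher and 2 lower, Btg2 at 0.55 ± 0.0846, Ier2 at 0.36 ± 0.0581 and Atf3 at -0.54 ± 0.0881. Of 16 Ly6 and Ms4a genes 6 were higher and 2 lower, with Ms4a4a at 2.28 ± 0.492 and Ms4a4b at 1.48 ± 0.309. Of the 7 tested T and NK cell genes 3 were higher, among them Cd3d, a chain of the T cell receptor complex, and Nkg7, and none was lower. Their summed level was 22.4 to 26.0 CPM in hypoxia WT and 39.1 to 49.8 CPM in hypoxia KO, and 20.5 to 26.1 CPM and 21.7 to 34.99 CPM in normoxia. Of 7 tested stromal, endothelial and epithelial genes 1 was higher (Col1a1, 0.81 ± 0.121).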
